A study of Mus musculus with 4 samples.

Results

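Glycolysis splits glucose into pyruvate in a chain of cytosolic enzymes, and lactate dehydrogenase then interconverts pyruvate and lactate. Neurons depend on this chain, and on the mitochondria that use its product, to pay for synaptic transmission, and lactate passed from astrocytes to neurons has been linked to memory formation in the hippocampus. Several steps have isozymes from separate genes, so tissues differ in their mix of forms. The genes followed here, in pathway order, were Hk1, Gpi1, Pfkl, Aldoa, Tpi1, Pgk1, Eno2, Pkm, Ldha and Ldhb. They were chosen by name, as every probe set whose single gene symbol was 1 of these 10. Of the 10 genes, 9 had such a probe set, and Gpi1, the isomerase after hexokinase, had none. Together they held 12 of the 12422 probe sets other than controls, and they were 9 of 8251 genes named by a single symbol. A probe set pools several short probes against the same transcript, and its intensity depends on how well they bind as well as on the RNA, so levels are compared between times and not between genes.

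The RNA came from area CA1 of the hippocampus of young male C57BL/6J mice. Every group was put in an unfamiliar chamber 2 h before training, then received 3 foot shocks of 0.5 mA there, a treatment the labels name shock alone, and RNA was extracted 1, 2, 4 or 6 h after the last of them. Each time had 1 array, 4 in all, and the number of animals behind each is not given in the labels. With no replicates there is no error estimate and no test, and every value rests on a single array. Untreated animals were not analysed here, so each time is set against the other times alone. In such bulk tissue, fewer cells of a type and less RNA per cell cannot be told apart.

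Transcripts of the glycolytic enzymes were bright on all 4 arrays and most differed little between hours. Of the 12 probe sets, 11 lay above a floor of 100.8 intensity units, the 40th percentile of all values, on each array. Their means ran from 1996 to 11678 units, and 7.58% of all probe sets were as bright as the dimmest of them. The exception was a second probe set of Ldhb, which read 21.6 units or less on each array and is left out of the counts that follow. For the other 11, the highest array exceeded the lowest by 1.11-fold to 1.52-fold, with a median spread of 1.19-fold. Over all 6442 probe sets above the floor on all arrays the median spread was 1.32-fold, and over the 937 of these with a mean of at least 2000 units it was 1.18-fold. The enzymes thus spread about as much as other bright transcripts. In 9 of the 11, the highest array was less than 25% above the lowest, as it was in 72.7% of the 937 bright probe sets, and the remaining ones were Hk1 and the first probe set of Ldhb.

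**Figure D1:**
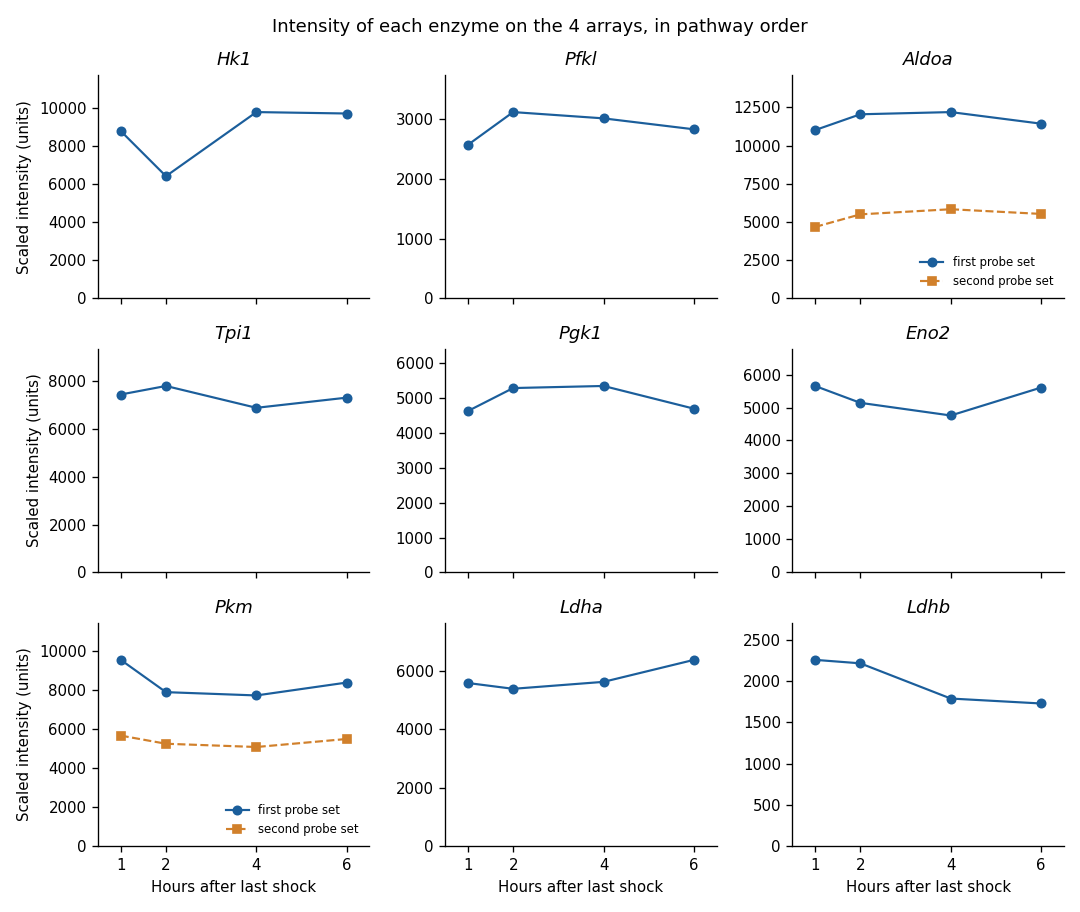
Scaled intensity (vertical axis, units, from 0) against hours after the last shock (horizontal axis) for the 9 enzymes with a probe set above the floor, 1 array per time. Circles show the probe set with the higher mean and squares a second one. Hk1 has its low point of 6409.9 at 2 h, Ldhb reads 1787 and 1727 on the last arrays, and in the other curves the highest array is less than 25% above the lowest.

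Hk1 encodes hexokinase 1, the main hexokinase of brain, which phosphorylates glucose as it enters the cell and binds the outer mitochondrial membrane. It read 8776, 6409.9, 9768 and 9694 units at 1, 2, 4 and 6 h. The 2 h array stood below the others, which lay within 1.11-fold of each other. The 4 h value was 1.52-fold and the 6 h value 1.51-fold above the value at 2 h, just past the limit of 1.5-fold used here to call a difference between arrays, and the 1 h value was 1.37-fold above it. Among the 937 bright probe sets, 3.74% had a spread as wide as that of Hk1. Hk1 had the widest spread of the 11 probe sets, so this share is the rank of their extreme. On the 2 h array the 3' control probe sets also stood farthest above the 5' ones, a ratio that reads how intact or how fully copied the RNA was. For actin this ratio was 1.84, 2.70, 1.79 and 1.74, and for Gapdh 3.98, 4.82, 3.85 and 3.24, in order of time. The part of RNA quality in the low value of Hk1 was not tested.

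Hk1 was the only enzyme past 1.5-fold in any of the 6 pairs of arrays. At 4 h over 2 h, 1 of the 11 probe sets was higher and none lower, where 4.46% of all probe sets above the floor were higher and 6.95% lower. At 6 h over 2 h it was again 1 higher and none lower, against 4.59% and 7.12% of all. No enzyme passed the limit at 2 h over 1 h, where 5.59% of all were higher and 4.84% lower, or at 4 h over 1 h, with 3.38% and 5.33%. None passed it at 6 h over 1 h, with 3.76% and 5.82%, or at 6 h over 4 h, with 3.93% and 4.12%. Shares of this size come to less than 1 of 11 probe sets, so counts of 0 or 1 say nothing particular about the enzymes. Among the 937 bright probe sets the shares were smaller, from 0.107% to 1.49% in either direction.

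With the limit set at 25% above the lower array, 2 enzymes were called, Hk1 and Ldhb. At 2 h over 1 h, 1 of 11 was lower (Hk1) and none higher, where 14.7% of all probe sets were lower and 15% higher. At 4 h over 1 h, 1 of 11 was lower (Ldhb), against 15.7% of all lower and 12.7% higher. At 6 h over 1 h, 1 of 11 was lower (Ldhb), against 16.9% lower and 12.8% higher. At 4 h over 2 h, 1 was higher (Hk1), against 13.9% higher and 18.1% lower. At 6 h over 2 h, 1 was higher (Hk1) and 1 lower (Ldhb), against 14.8% higher and 18.5% lower. No enzyme was called at 6 h over 4 h, where 13.1% of all were higher and 13.3% lower. Every other enzyme was thus within this limit in each pair. The second probe set of Aldoa was just within it, with 4 h 24.8% above 1 h. After scaling to a common median, Ldhb at 1 h was 1.21-fold above 4 h and 1.23-fold above 6 h, within the limit. Hk1 at 4 h was still 1.63-fold above 2 h under that scaling. Counts at this limit were not made under the other scalings. Among the 937 bright probe sets the shares were smaller, from 2.35% to 8.43% in either direction, and each comes to less than 1 of 11 probe sets.

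**Figure D2:**
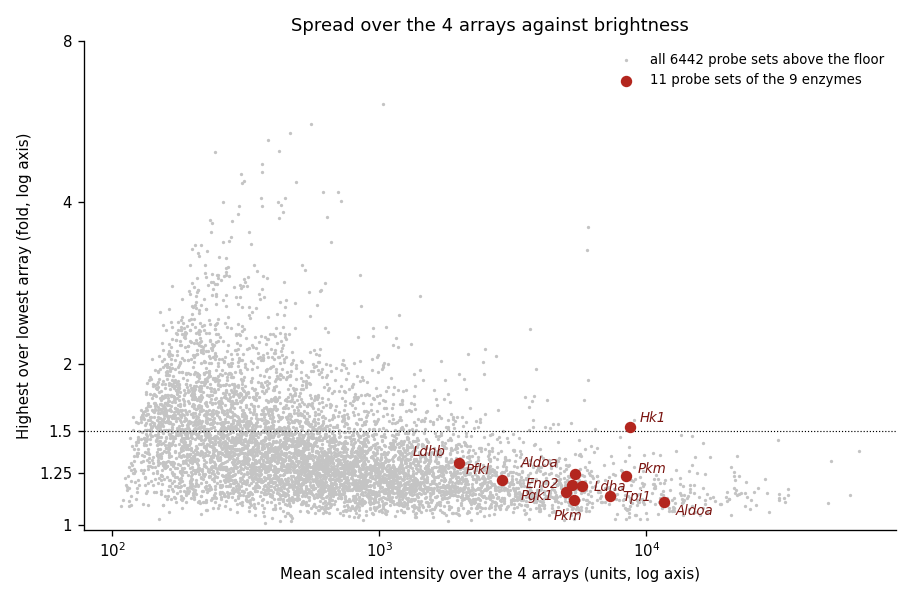
Ratio of the highest to the lowest array (vertical log axis, fold) against mean scaled intensity (horizontal log axis, units) for all 6442 probe sets above the floor on the 4 arrays (grey) and the 11 of the glycolytic enzymes (red). The dotted line marks 1.5-fold. The enzymes lie at the bright end where the cloud is narrow, and Hk1, at 1.52-fold, is the one above the line.

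Pfkl is the liver-type subunit of phosphofructokinase, which catalyses the committed step of the pathway. It read 2568, 3116, 3010.4 and 2827 units at 1, 2, 4 and 6 h. Aldolase A, encoded by Aldoa, splits the resulting sugar bisphosphate into a pair of triose phosphates. Its first probe set read 11020.1, 12055, 12199 and 11439 units in the same order. The second read 4681, 5506, 5841 and 5534. Both genes read lowest at 1 h on every probe set, by 1.21-fold against the highest time for Pfkl and by 1.11-fold for the first probe set of Aldoa, while the second stood 24.8% higher at 4 h than at 1 h. Tpi1, the isomerase that interconverts the trioses, differed by 1.13-fold at most, at 7432, 7788, 6875 and 7301 units. Both probe sets of Aldoa, like the first of Pkm, carry a suffix by which the manufacturer marks probes shared by a gene family, and the second of Pkm is marked as shared between transcripts, so related genes or processed pseudogenes may add to their signal.

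Phosphoglycerate kinase, from the X-linked gene Pgk1, makes the first ATP of the pathway. Pgk1 read 4629, 5288, 5348 and 4696 units at 1, 2, 4 and 6 h. Both middle times lay above the first and the last, by 1.16-fold at most. Eno2, the neuron-specific enolase, had the reverse shape, at 5654, 5142, 4758 and 5607 units, with 1 h 1.19-fold above 4 h. Pyruvate kinase M, from Pkm, makes the last ATP of the pathway and had the shape of Eno2 on both of its probe sets. The first read 9534, 7883, 7714 and 8374 units, with 1 h 1.24-fold above 4 h. The second read 5661, 5244, 5077 and 5488 units, with 1 h 1.11-fold above 4 h.

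In all, 3 of the 11 probe sets (Pfkl, Pgk1 and the first of Aldoa) were higher at both 2 h and 4 h than at 1 h and 6 h, and 3 (Eno2 and both of Pkm) were lower at both. This shape was looked for after the values had been seen. Each of these shapes was present in 15.4% of all probe sets above the floor, and in 14.6% and 14.4% of the 937 bright ones. The 3 that were lower stand for 2 genes. After scaling to a common median the first group held 2, without Aldoa, and after quantile normalization each group held 4, the second probe set of Aldoa joining the first and Ldha the second. No more than a description can be read from counts this small.

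Lactate dehydrogenase is a tetramer of M subunits, encoded by Ldha and prevalent in tissues that make lactate, and H subunits, encoded by Ldhb and prevalent in tissues that oxidise it. Ldha read 5579, 5381, 5618 and 6369.9 units at 1, 2, 4 and 6 h. It was level on the first arrays and stood 1.14-fold higher at 6 h than at 1 h. Ldhb read 2255, 2213, 1787 and 1727 units. Its values at 4 h and 6 h lay below those at 1 h and 2 h, with 1 h 1.26-fold above 4 h and 1.31-fold above 6 h.

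Both genes are read on the same array, so the difference between them relative to 1 h does not depend on a factor common to the array. On the log2 scale, Ldha minus Ldhb stood at −0.03 at 2 h, 0.35 at 4 h and 0.58 at 6 h relative to 1 h, and at 6 h this is a 1.49-fold difference in the ratio of M to H transcript. At 4 h nearly all of it lay in Ldhb, whose log2 difference from 1 h was −0.34, against 0.01 for Ldha. At 6 h Ldhb stood at −0.38 and Ldha at 0.19. Among the 937 bright probe sets, 2.99% were at or below Ldhb at 6 h over 1 h, and 16.1% at or above Ldha. Ldhb itself, with a mean of 1996 units, lies just outside that set, whose members are all brighter. A spread over the 4 arrays as wide as that of Ldhb was found in 17.3% of the 937. The share was 35.1% of probe sets of at least 500 units, and 53.0% of all above the floor on all arrays. After quantile normalization Ldha minus Ldhb was 0.34 at 4 h and 0.59 at 6 h. The small difference of Ldha between 1 h and 4 h turned there, to −0.01. A single probe set above the floor stands behind each gene, and no background was computed for a difference between a pair of probe sets.

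**Figure D3:**
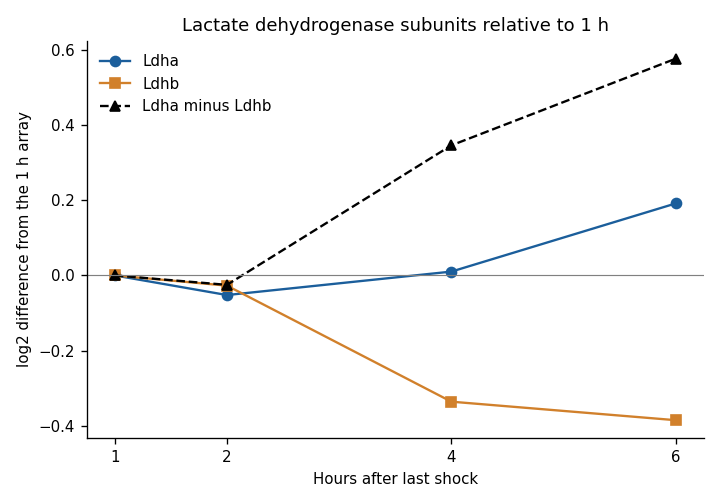
log2 difference from the 1 h array (vertical axis) against hours after the last shock (horizontal axis) for Ldha (circles), Ldhb (squares) and the difference between them (triangles, dashed), 1 array per time. Ldha and Ldhb are together at 2 h and stand 0.35 apart at 4 h and 0.58 apart at 6 h.

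The promoters of Ldha and Ldhb are shown because the values of these subunit genes differed in opposite directions at 6 h. Each line is the 250 bases before an annotated start, on the coding strand and 5′ to 3′, from RefSeq on GRCm38.p6. The Ldha window lies on the plus strand at chr7:46845554-46845803, before the first of its 2 starts in the table. The Ldhb window lies on the minus strand at chr6:142507958-142508207. Capitals mark ACGTG (a form of the core of the site bound by hypoxia-inducible factor) and CACGTG (the E-box). They also mark TGACGTCA (the cyclic AMP response element), and each was searched on both strands. The other form of the hypoxia-inducible factor core, GCGTG, was not searched, and the Ldhb line contains it.
Ldha: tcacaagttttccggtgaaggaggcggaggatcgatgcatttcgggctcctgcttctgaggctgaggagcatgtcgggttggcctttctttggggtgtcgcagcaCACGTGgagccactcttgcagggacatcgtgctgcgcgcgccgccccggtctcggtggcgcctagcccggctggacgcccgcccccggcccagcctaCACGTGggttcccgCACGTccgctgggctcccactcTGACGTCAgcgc
Ldhb: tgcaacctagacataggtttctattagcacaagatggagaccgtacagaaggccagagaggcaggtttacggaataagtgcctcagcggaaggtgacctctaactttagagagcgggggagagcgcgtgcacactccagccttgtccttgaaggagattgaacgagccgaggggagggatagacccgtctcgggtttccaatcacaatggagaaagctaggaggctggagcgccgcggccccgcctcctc
The Ldha window held ACGTG 5 times, counting both strands, of which 4 lay within its 2 copies of CACGTG, and TGACGTCA 1 time. The Ldhb window held none of the searched motifs, and the window of the other Ldha start held none either. All 10 genes were found in the table, with 15 windows in all. ACGTG was in 5 of the 15 windows, from Ldha, Aldoa (in a pair of windows that overlap), Pgk1 and Pkm, and in 16.6% of all 32851 windows of this length. CACGTG and TGACGTCA were in the Ldha window alone among the 15, against 6.02% and 1.55% of all windows. The motifs were chosen after the values had been seen, and a match describes letters and not binding.

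As a group the 9 genes had no common direction, each gene taken by its brightest probe set. Their median log2 difference was −0.03 at 2 h over 1 h, 0.01 at 4 h over 1 h and 0.02 at 6 h over 1 h. Over 5671 genes with a mean above the floor the corresponding medians were 0.00, −0.01 and −0.01. At 6 h over 2 h the enzymes had a median of −0.08, with 4 genes higher and 5 lower, against −0.01 for all genes. In each of the 6 pairs, 4 or 5 of the 9 were higher. The number of the 9 that were at their highest was 3, 2, 3 and 1 at 1, 2, 4 and 6 h, and the numbers at their lowest were the same, while 22.5% to 29.2% of all genes were highest at a given time.

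Other genes of glucose and pyruvate metabolism, a list of 44, had no common direction either. Of these, 34 had a probe set with a single symbol, 24 a mean above the floor and 20 values above it on all 4 arrays. The 20 had a median spread of 1.34-fold and include dimmer transcripts than the enzymes above. The median log2 difference of the 24 was −0.02 at 2 h over 1 h, 0.01 at 4 h over 1 h and −0.04 at 6 h over 1 h. Past 1.5-fold at 2 h over 1 h were 2 of 26 probe sets higher and 3 lower, where 5.59% and 4.84% of all probe sets were. At 4 h over 2 h, 3 of 27 were higher and 2 lower, beside 4.46% and 6.95% of all. At 6 h over 2 h, 1 of 26 was higher and 3 lower, beside 4.59% and 7.12%. At 4 h over 1 h, 1 of 24 was higher and none lower, beside 3.38% and 5.33%, and at 6 h over 1 h 1 of 23 in each direction, beside 3.76% and 5.82%. At 6 h over 4 h none of 25 was called, beside 3.93% and 4.12%.

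Some of these calls rested on a gene's dimmer probe set or disagreed between probe sets. Pcx, pyruvate carboxylase, was called higher at 2 h over 1 h on its second probe set (116 and 259 units at 1 h and 2 h), while its first read 159 and 129. Dlat, the E2 subunit of pyruvate dehydrogenase, was called lower there on its second probe set (204 and 131), while its first read 446 and 456.

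At the entry of the pathway, Slc2a1, the glucose transporter of the blood-brain barrier and of astrocytes, read 221, 298, 310.2 and 338 units, lowest on the first array. Slc2a3, the neuronal glucose transporter, read 509, 323, 493 and 481, low on the 2 h array as Hk1 was, while its dim second probe set was below the floor at 1 h and read 108 at 2 h. Hk2, the inducible hexokinase, read 156 units at 2 h and 60.6, under the floor, at 1 h, which puts 2 h at least 1.55-fold higher; its second probe set was below the floor throughout. Pfkfb3, which makes the activator of phosphofructokinase, was dim, at 222, 139, 242 and 76.2 units, and its second probe set was below the floor throughout. The other phosphofructokinase subunits, Pfkm and Pfkp, read 1032, 1025, 977 and 969 units and 762, 576, 633 and 701 units. The second probe set of Pfkp, at 648, 632, 640.5 and 586, was lowest at 6 h and not at 2 h.

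Further down the chain, Aldoc, the aldolase of astrocytes, read 12167, 12926, 10636 and 11382 units, lowest at 4 h. Pgam1, phosphoglycerate mutase, was lowest at 4 h too, at 6929, 6758, 5751 and 6791. Gapdh was read by control probe sets and by probe sets shared with its pseudogenes. Its 3' control read 40063, 40132, 34342 and 34316 units and its middle control 21493, 22108, 19953 and 20758, both lower at 4 h and 6 h. The brighter of the shared probe sets, at 24597, 25126, 21918 and 22179, was lower at 4 h and 6 h as well. The dimmer read 250, 316, 262 and 220, highest at 2 h and lowest at 6 h. The 5' control of Gapdh, at 10058, 8333, 8916 and 10584, was highest at 6 h, so the direction for Gapdh depends on the probe set. Eno1 had no probe set with that single symbol. Eno3, the muscle enolase, read 322, 255, 248 and 209.7 units.

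**Figure D4:**
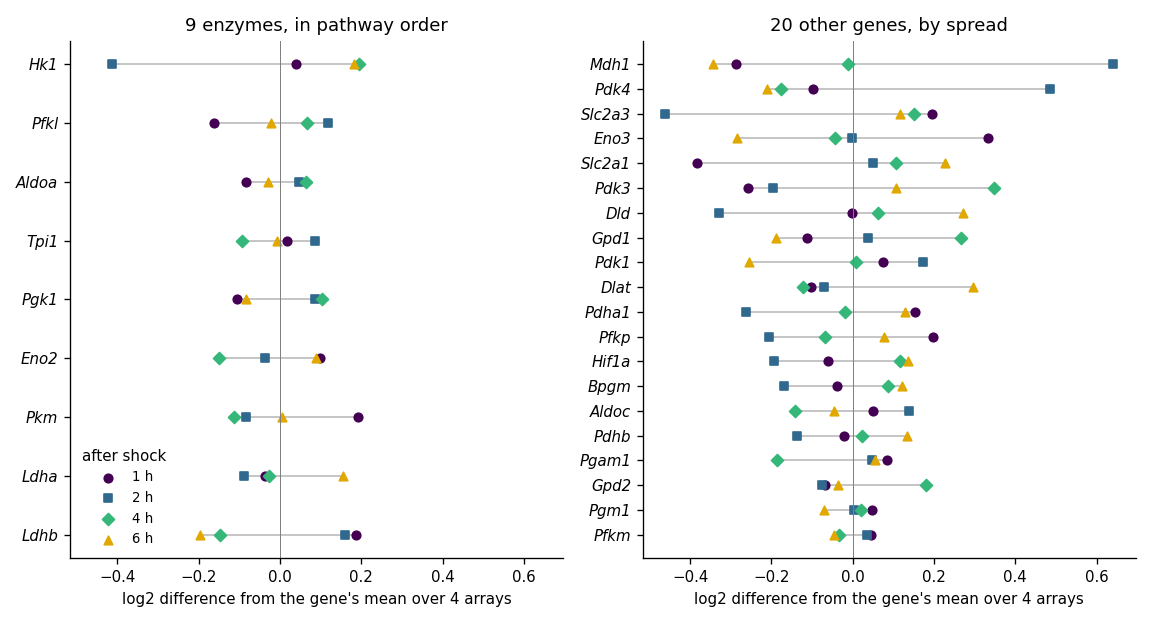
log2 difference of each array from the gene's own mean over the 4 arrays (horizontal axis), for the 9 glycolytic enzymes in pathway order (left) and the 20 other listed genes above the floor on all arrays, ordered by spread (right). Each symbol is 1 array and the line joins the lowest and highest. Hk1 stands out at left by its 2 h value, and at right Mdh1, Pdk4 and Slc2a3 also differ most at 2 h.

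At the fate of pyruvate, Pdk3 and Pdk4, kinases that switch off pyruvate dehydrogenase, read highest on different arrays. Pdk3 read 992, 1034, 1508 and 1276 units, with 4 h 1.52-fold above 1 h. Pdk4 read 217, 325, 206 and 201, highest at 2 h. Dld, the E3 subunit shared by mitochondrial dehydrogenase complexes, read 1888, 1503, 1972 and 2279 units, lowest at 2 h. Pdha1, the E1 alpha subunit of pyruvate dehydrogenase, was lowest at 2 h as well, at 4532, 3393, 4018 and 4455. Of the 24 genes with a mean above the floor 8 were lowest on the 2 h array and 8 on the 6 h array, 33.3% each, against 27.0% and 24.9% of all genes. Mdh1, the cytosolic malate dehydrogenase that helps carry reducing power into mitochondria, read 233, 443, 282 and 224 units, 1.98-fold higher at 2 h than at 6 h. Gpd1, of the glycerol phosphate shuttle, was highest at 4 h, at 1213, 1346, 1579 and 1151. Below the floor on all 4 arrays, by their brightest probe set, were 7 genes. These were Ldhc of testis, the gluconeogenic Fbp1 and Fbp2, Pfkfb2, the lactate transporter Slc16a1, the pyruvate carrier subunit Mpc1 and Got1. Such a reading can come from probes that bind poorly as well as from little RNA, so it does not show that a gene is silent. The second probe set of Ldhb was below the floor too, while its first was not.

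Markers of several cell types also differed between the arrays. The choroid plexus list, 5 of 9 genes on the array, had summed intensities of 442, 431, 722 and 5430.0 units in order of time. Ttr, the transthyretin of that epithelium, read 111, 89.9, 198 and 4482 units, Kl was the next brightest, and Aqp1 and Slc4a5 were not above the floor. The pyramidal neuron list, 6 of 9 on the array and 4 of them above the floor, summed to 6716, 7201, 8805 and 8502 units, led by Nrgn and Wfs1, with Camk2a and Nr3c1 not above the floor. The astrocyte list, 7 of 9, summed to 23120, 23433, 20873 and 21410 units, led by Aldoc and Gja1. Of these 7 genes, 2 (Aldoc and Gja1) were lower at both 4 h and 6 h than on both earlier arrays and none was higher, and without Aldoc, itself a glycolytic gene, the list summed to 10953, 10507, 10237 and 10028 units. Gfap, at 1963, 2339, 2034 and 2070 units, and Slc1a2, at 248, 383, 339 and 321, were not lower at 4 h and 6 h than at 1 h. Of the 4 neuronal genes above the floor, 3 were higher at both 4 h and 6 h than on both earlier arrays, and 1, Pou3f1, was lower, at 484, 455, 355 and 359 units. The myelin list, 8 of 9 and led by Mobp and Mbp, ranged from 26201 to 28972, and Cnp was not above the floor. The list of endothelial and mural genes, 9 of 9 and led by Cldn5 and Flt1, ranged from 1139.9 to 1598. The blood list, 3 of 7 with Hba-a1 and Hbb-b2 leading, ranged from 3381 to 4232, and the microglial list, 6 of 7 led by Csf1r and C1qc, from 5334 to 6032. The part of cell composition in the values of Ldha and Ldhb was not tested.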

How the data were processed

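Total RNA of 4 CA1 samples, 1 per time, was read on arrays of 12488 probe sets, 66 of them controls. Values in the deposited file are linear intensity units. The authors had brought the arrays to a common level, since the mean without the top and bottom 2% was 500.3 on each; the software is not given in the sources used here. Probe sets were named from the platform annotation: 10833 of 12422 had 1 symbol, 396 several and 1193 none. Arrays were rescaled to a common trimmed mean without controls (factors 0.999 to 1.001). Spike-in controls were not used for scaling. Over 9 bacterial and phage spike-in probe sets the geometric mean stood at 1.16, 0.94 and 0.87 at 2, 4 and 6 h relative to 1 h. Values below 100.8, the 40th percentile, were set to that floor before log2 for gene medians, while printed intensities are the scaled values. Pairs of arrays were compared over probe sets above the floor on both. For a gene with several probe sets the brightest stood for it in medians.

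No test was run, since each time has 1 array. The genes, lists and motifs were chosen with earlier results of these data known. The text names all probe sets of the 10 genes, the 8 listed pathway genes with the largest spread among the 20 above the floor on all arrays, 6 chosen whatever their values, and the 2 brightest genes of each marker list with Ttr. Pfkm, Pfkp, Pgam1, Pdha1, Pfkfb3, Pcx, Dlat, Gfap, Slc1a2, Pou3f1, the markers not above the floor and the 7 genes below it on all arrays were named after their values were seen. Alternatives were the values as deposited, a shared median, quantiles, a floor at the 20th or 60th percentile, other fold limits, other choices of probe set, brighter backgrounds and arrays left out. Spreads without the 2 h or 6 h array and other scalings of Ldha minus Ldhb were added after the data were seen. The steps were tested on simulated arrays. The tools were NumPy 2.4.6 and pandas 2.3.3 under Python 3.11.15, with matplotlib 3.10.9 for figures.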

Additional observations from a re-analysis of the deposited data

How the results depend on the processing

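Of 297 values recomputed under an alternative, 261 stayed close to the value reported, 36 moved and 0 changed sign from beyond the tolerance. Close means within 1.5 times for counts and shares, and within 0.15 for log2 values. This tolerance of 0.15 is the robust SD between the 4 h and 6 h arrays over bright probe sets. Among the log2 values, only Ldha minus Ldhb at 4 h and 6 h exceeded it, and a common factor per array cannot change that difference. The count of sign changes therefore says little. The medians of the glycolytic enzymes stayed close in 82 of 82 cases, with a largest shift of 0.12, but 15 changed sign, since the largest of them was 0.08 in size. Scaling to a common median raised 6 h over 2 h by 0.11 (log2) for all probe sets. The median spread of the enzymes was 1.16-fold without the 2 h array and 1.19-fold without the 6 h array, and that of Hk1 alone was 1.11-fold without 2 h.

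With the limit at 25% the enzymes had 1 probe set past it at 2 h over 1 h, 1 at 4 h over 1 h, 1 at 6 h over 1 h and 2 at 6 h over 2 h. With 2-fold there were 0 at 4 h over 2 h and 0 at 6 h over 2 h. The share of probe sets past 1.5-fold, averaged over the 6 pairs, was 9.44% of those above the floor on all arrays, and 3.75% and 1.26% of those of at least 500 and 2000 units. The share with at least the enzymes' median spread was 76.3%, and 46.7% at 2000 units or more. After scaling to a common median 0 enzymes were highest at 2 h and 4 at 6 h, and after quantile normalization 2 were lowest at 6 h.

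For the 44 other genes, the number past 1.5-fold was 5, 1, 2, 5, 4 and 0 at 2 h, 4 h and 6 h over 1 h, 4 h and 6 h over 2 h, and 6 h over 4 h. The floor at the 20th percentile gave 8, 7 and 10 over 1 h and 4 at 6 h over 4 h. The floor at the 60th gave 1 at 2 h over 1 h, 0 at 6 h over 1 h, and 2 and 1 at 4 h and 6 h over 2 h, where the median log2 difference at 6 h became 0.23. With 25% the numbers were 11, 4, 6, 8, 10 and 4, and with 2-fold 1, 0, 0, 0 and 0 for the first 5 pairs. A common median gave 2 at 4 h and 1 at 6 h over 1 h, and quantile normalization 2 at 4 h over 1 h and 1 at 6 h over 4 h. A higher floor leaves fewer probe sets; other causes of these moves were not tested. No paired analysis was possible because each time has 1 array. Probe sets near the floor carry little signal over background, which limits the dim genes of that list more than the enzymes.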
